A study of Mus musculus with 46 samples.

Results

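The genes examined are 10 of the 21671 in a table of liver and liver tumour RNA levels: Axin2, Lgr5, Tbx3, Rnf43, Znrf3, Lect2, Rhbg, Oat, Notum and Nkd1. They were chosen by symbol as targets of Wnt and beta-catenin signalling that the pericentral liver expresses, leaving out Glul and the Cyp genes by a rule that names symbols only. All samples came from FVB mice. Myc tumours (16 libraries from 7 animal IDs) were tet-Myc/LAPtTA liver tumours with Myc expression on. Myc-off tumours (8 libraries, 3 IDs) had the same transgenes and were taken after 16 h of doxycycline-containing food, which switches tet-Myc off. MycVD tumours (11 libraries, 10 IDs) were tet-MycVD/LAPtTA tumours with expression on, in which the transgene encodes the V394D form of Myc, a substitution known for weakening the binding of Myc to its partner Miz1. Control livers (11 libraries, 11 IDs) were labelled normal liver, and the labels do not say which transgenes, if any, they carried. LAPtTA is a tetracycline-controlled activator that drives the transgene in hepatocytes from before birth. Ages were not given in the labels. Tumours with the same ID number were taken to come from 1 animal and were averaged, so that n below counts animal IDs. The Myc-off and MycVD IDs are numbered above the Myc IDs, and differences in time or handling that go with this numbering cannot be told apart from the genotype or treatment.

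In the liver lobule, Wnt ligands and R-spondins made by endothelial cells of the central vein keep beta-catenin active in the neighbouring hepatocytes. Active beta-catenin joins TCF/LEF factors on DNA and turns on a pericentral programme that includes glutamine synthesis, ammonium uptake and drug metabolism. The same signal turns on its own brakes: Axin2 is part of the complex that marks beta-catenin for destruction, Nkd1 binds Dishevelled, Notum is a secreted enzyme that removes the lipid from Wnt ligands, and Rnf43 and Znrf3 are membrane ubiquitin ligases that clear Frizzled receptors from the cell surface. Lgr5 is a receptor through which R-spondins hold Rnf43 and Znrf3 back. Tbx3 is a T-box transcription factor, Lect2 a secreted protein, Rhbg an ammonium transporter and Oat the mitochondrial enzyme ornithine aminotransferase. Pericentral cells are a minority of a normal liver, and a bulk value cannot tell fewer expressing cells from less RNA per cell.

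RefSeq promoter windows on GRCm38.p6, running from 250 bases before to 50 bases after the annotated gene start, were at hand for 5 of the 10 members. They were searched on both strands for the TCF/LEF core CTTTGAT, whose reverse complement is ATCAAAG. Windows of 4 members are shown because they cover a deep fall with a match (Lect2), the negative feedback regulators without one (Axin2 and Nkd1) and the member that fell least (Oat). Capitals mark bases of CTTTGAT and of the shorter core CTTTG on either strand.
Lect2 (chr13:56548489-56548788, minus strand): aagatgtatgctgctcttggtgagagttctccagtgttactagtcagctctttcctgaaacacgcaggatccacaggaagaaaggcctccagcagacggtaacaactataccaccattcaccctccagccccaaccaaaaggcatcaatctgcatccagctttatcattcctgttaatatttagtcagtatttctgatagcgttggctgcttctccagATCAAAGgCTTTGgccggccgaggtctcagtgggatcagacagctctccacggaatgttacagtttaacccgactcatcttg
Axin2 (chr11:108920099-108920398, plus strand): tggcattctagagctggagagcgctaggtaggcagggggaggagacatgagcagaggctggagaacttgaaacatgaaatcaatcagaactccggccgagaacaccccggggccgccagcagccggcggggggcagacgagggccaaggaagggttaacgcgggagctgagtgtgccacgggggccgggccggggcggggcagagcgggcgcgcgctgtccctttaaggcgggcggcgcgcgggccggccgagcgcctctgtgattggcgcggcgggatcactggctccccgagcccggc
Nkd1 (chr8:88527383-88527682, plus strand): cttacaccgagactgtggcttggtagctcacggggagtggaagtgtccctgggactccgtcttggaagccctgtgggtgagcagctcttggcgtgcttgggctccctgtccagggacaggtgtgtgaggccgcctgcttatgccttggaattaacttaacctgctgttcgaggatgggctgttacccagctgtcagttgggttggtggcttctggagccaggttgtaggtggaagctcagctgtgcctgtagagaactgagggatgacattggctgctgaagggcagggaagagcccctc
Oat (chr7:132576349-132576648, minus strand): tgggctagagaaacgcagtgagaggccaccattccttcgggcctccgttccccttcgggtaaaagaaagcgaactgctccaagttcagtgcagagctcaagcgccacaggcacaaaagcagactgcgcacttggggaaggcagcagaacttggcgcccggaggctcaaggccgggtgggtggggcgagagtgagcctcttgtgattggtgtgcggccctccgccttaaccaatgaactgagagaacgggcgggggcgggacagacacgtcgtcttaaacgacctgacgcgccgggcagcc
Lect2 alone held the 7-base core, as ATCAAAG beginning 32 bases before the gene start, followed 1 base later by CTTTG. Of all 32544 distinct windows of this length, 3.73% held CTTTGAT, and 54% held CTTTG, which is contained in it. Neither of the 2 windows of Rnf43 and none of the other members' windows held CTTTGAT. The Myc-binding E-box CACGTG was in none of the 6 windows searched, against 7.17% of all windows. A window without these letters says nothing about more distant sites.

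Levels are given in eRPKM, the deposited reads per kilobase scaled to library depth, as mean ± SD over animal IDs. For 19418 of the 21671 genes a step was found that turned every value into whole reads, within 0.001 reads. That fit was the condition for keeping a step. The 772976 values above 0 of these genes are therefore whole by selection and check nothing. Depth was taken as the reads of these genes alone. It was 7036767 to 12247140 for Myc, 3107849 to 10047252 for Myc-off, 5935845 to 10234112 for MycVD and 5462645 to 8694306 for control libraries. The row for Myc did not separate the groups, with library ranges of 5.41 to 11.1 eRPKM in Myc, 2.65 to 11.6 in Myc-off, 2.67 to 9.86 in MycVD and 1.46 to 18.2 in control, so it does not check the labels. The 5 hepatocyte markers measured summed to 449.6 to 742.8 eRPKM in Myc, 540.0 to 1361 in Myc-off and 564.0 to 800.9 in MycVD tumours, against 693.0 to 1137 in control livers, and none was at 0. The 10 endothelial markers summed to 66.9 to 133 eRPKM in Myc, 56.7 to 152 in Myc-off and 55.5 to 113 in MycVD tumours, against 181 to 342 in control livers, with none at 0 in every library of a group. Endothelial cells make the zonal Wnt ligands. The part of this shift in the levels below was not tested. Differences were tested with limma on log2(eRPKM + 0.5), with Benjamini-Hochberg adjustment over the 14566 genes that reached 1 eRPKM in at least 3 IDs, and a gene was called at an adjusted p under 0.05. The added 0.5 shrinks the fold change of genes at low levels. The log2 values are differences between means of logs, so they can lie above or below the log2 ratio of the means.

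**Figure D1:**
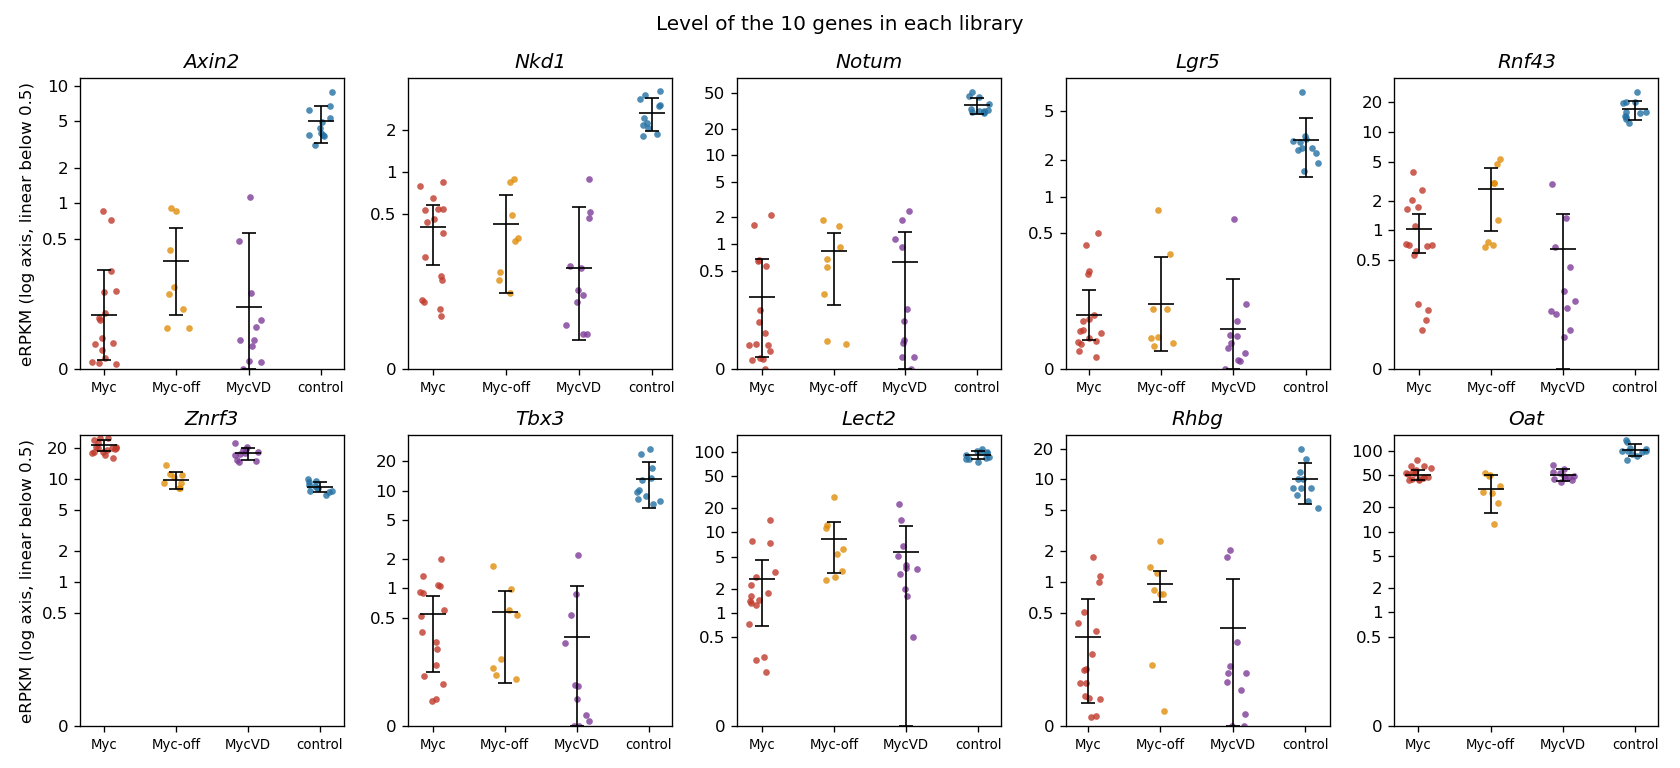
Level of each gene in eRPKM (log axis, linear below 0.5) in every library of the Myc, Myc-off, MycVD and control groups; bars show the mean and SD over animal IDs, with the lower end drawn no lower than 0. Every tumour library of Axin2, Nkd1, Notum, Lgr5, Rnf43, Tbx3, Lect2, Rhbg and Oat lies under the lowest control liver, whereas Znrf3 lies above all control livers in Myc and MycVD tumours.

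In all, 9 of the 10 genes were lower in Myc tumours than in control livers and 1, Znrf3, was higher. The background was broad: 80.0% of all tested genes were called in this comparison, 50.4% higher and 29.7% lower. The ID means of all 10 genes did not overlap between the groups, which was so of 53.8% of all tested genes (35.1% with the tumours higher and 18.7% with the tumours lower). All 10 genes passed the filter on low values, but Axin2, Lgr5, Tbx3, Rhbg and Nkd1 passed only through the control livers, so these 5 had to be lower in the tumours and their number supports nothing. The members' median log2 fold change was -3.23, beside 0.28 over all tested genes. That median includes these 5 genes and so supports nothing either.

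Among the feedback regulators, Notum was the most depleted. Its library values ran from 0 through a median of 0.158 to 2.11 eRPKM in Myc tumours, against 29.8, 32.8 and 51.5 eRPKM in control livers. The means were 0.369 ± 0.305 eRPKM (SD, n = 7 IDs) and 36.7 ± 7.67 eRPKM (SD, n = 11), so that 1.01% of the control level remained, a log2 change of -5.47 ± 0.27 (SE; adjusted p = 4.6e-18). Axin2 ran from 0.0201 through 0.154 to 0.857 eRPKM in Myc tumours and from 3.13 through 4.32 to 8.77 eRPKM in control livers. The highest tumour library was thus well under the lowest control liver, and the mean in Myc tumours was 4.17% of that in control livers (0.207 ± 0.172 and 4.96 ± 1.69 eRPKM; log2 change -2.93 ± 0.20, adjusted p = 1.4e-14). Nkd1 was the feedback gene with the largest remainder among these: 0.458 ± 0.122 eRPKM in Myc tumours and 2.67 ± 0.71 eRPKM in control livers, or 17.1% (log2 change -1.70 ± 0.15, adjusted p = 1.6e-11). Its libraries ran from 0.173 to 0.849 eRPKM in Myc tumours and from 1.81 to 3.82 eRPKM in control livers. The table's build and annotation are not those used here to look for overlaps, but in GENCODE M21 Notum shares 708 of 2408 exon bases with the antisense gene Notumos and 210 with Myadml2os, Axin2 shares 209 of 5506 with Gm11670, and Tbx3 shares 115 of 6624 with Tbx3os1. The library kit does not mark strand, so reads in these stretches cannot be assigned to one gene. Rhbg shares 1190 of 1937 exon bases with the same-strand model Gm38392, so its value may hold reads of either.

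The paired ubiquitin ligases Rnf43 and Znrf3, which act on the same receptors, went in opposite directions. Rnf43 had 0.179, 0.707 and 3.88 eRPKM as the lowest, median and highest library in Myc tumours, and 12.3, 15.8 and 25.3 eRPKM in control livers. Its mean was 1.03 ± 0.44 eRPKM in Myc tumours (n = 7) and 17.0 ± 3.88 eRPKM in control livers (n = 11), a log2 change of -3.55 ± 0.26 (adjusted p = 7e-14). Znrf3 had 16.3, 20.2 and 25.2 eRPKM in Myc tumours, against 7.09, 8.24 and 10.2 eRPKM in control livers. Every Myc tumour library was above every control liver, and the mean of 21.6 ± 2.71 eRPKM was 2.55 times the control mean of 8.47 ± 0.97 eRPKM (log2 change 1.30 ± 0.09, adjusted p = 2.2e-14). In control livers Rnf43 was the more abundant of the pair per kilobase, and in Myc tumours Znrf3 was. Lgr5, a receptor through which R-spondins act on both, had 0.200 ± 0.090 eRPKM in Myc tumours and 2.90 ± 1.47 eRPKM in control livers, or 6.89% (log2 change -2.21 ± 0.18, adjusted p = 9.5e-13). One control liver, at 7.11 eRPKM of Lgr5, lay far above the control median of 2.49 eRPKM.

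The transcription factor Tbx3 had library values of 0.115, 0.481 and 2.0 eRPKM (lowest, median, highest) in Myc tumours and of 7.37, 10.1 and 26.6 eRPKM in control livers. Its mean fell to 0.541 ± 0.292 eRPKM in Myc tumours, against 13.2 ± 6.57 eRPKM in control livers (log2 change -3.64 ± 0.28, adjusted p = 4.1e-13). The secreted protein gene Lect2 had a wide tumour range, with 0.304, 1.52 and 14.1 eRPKM in Myc tumours, against 76.0, 92.3 and 108 eRPKM in control livers. Control livers were tight for Lect2 and tumours were not. The mean was 2.61 ± 1.93 eRPKM in Myc tumours and 91.8 ± 10.2 eRPKM in control livers, or 2.84% (log2 change -5.17 ± 0.41, adjusted p = 8.6e-13). The ammonium transporter gene Rhbg had 0.391 ± 0.288 eRPKM in Myc tumours and 10.1 ± 4.33 eRPKM in control livers (log2 change -3.54 ± 0.27, adjusted p = 3.9e-13). Oat was the exception in size. Its libraries had 43.2, 52.0 and 75.9 eRPKM in Myc tumours and 76.8, 99.2 and 137 eRPKM in control livers, which nearly touch. The mean of 50.5 ± 7.09 eRPKM in Myc tumours was 49.3% of the control mean of 102.5 ± 17.6 eRPKM (log2 change -1.01 ± 0.14, adjusted p = 7.4e-08). The abundant translation elongation factor gene Eef1a1 had a similar number of reads per kilobase in every library, 1392 to 1646 in Myc tumours and 1324 to 1546 in control livers. The highest of all genes had 1492 to 2518 in Myc tumours and 1501 to 2117 in control livers. Oat lay at 340 to 727 reads per kilobase in Myc tumours and 481 to 1064 in control livers, under the values of Eef1a1. Whether a limit on reads per kilobase touches the ratio of Oat was not tested.

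**Figure D2:**
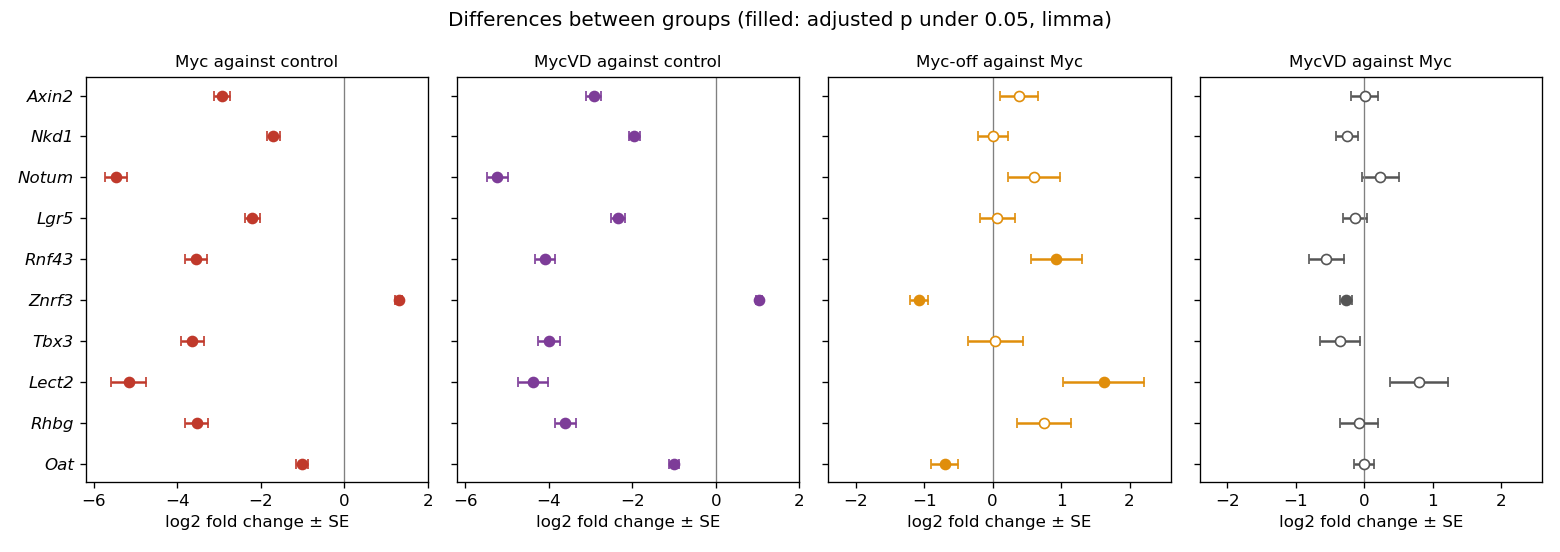
Log2 fold change of each gene (x axis, limma on log2(eRPKM + 0.5), bars are the SE) in Myc against control, MycVD against control, Myc-off against Myc and MycVD against Myc; filled points have an adjusted p under 0.05. Both tumour types lie near the same positions against control, with Notum at -5.47 and -5.23 and Znrf3 at 1.30 and 1.04, whereas differences between tumour groups are smaller, with Znrf3 at -1.08 and Lect2 at 1.62 in Myc-off against Myc.

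MycVD tumours gave the same calls against control livers, with 9 genes lower and Znrf3 higher and no overlap of ID means for any of the 10 genes. The ID means of 40.5% of all tested genes did not overlap in this comparison, 25.8% with the tumours higher and 14.7% with the tumours lower. It shares its control livers with the comparison above, and 80.2% of all tested genes were called in it, 49.2% higher and 31.1% lower. Axin2, Lgr5, Tbx3, Rhbg and Nkd1 passed the filter only through control livers, so the filter favoured their direction here too. Notum averaged 0.632 ± 0.732 eRPKM in MycVD tumours (n = 10) and 36.7 ± 7.67 eRPKM in control livers (log2 change -5.23 ± 0.24, adjusted p = 9.3e-19). Rnf43 averaged 0.649 ± 0.828 eRPKM, or 3.82% of the control level (log2 change -4.09 ± 0.23, adjusted p = 1.6e-16). Lect2 averaged 5.78 ± 6.39 eRPKM in MycVD tumours, with libraries from 0.501 to 22.5, and 91.8 ± 10.2 eRPKM in control livers (log2 change -4.38 ± 0.37, adjusted p = 4e-12). Axin2, at 0.237 ± 0.325 eRPKM, kept 4.78% of the control mean, and Tbx3, at 0.410 ± 0.649 eRPKM, kept 3.10%. The SDs of these 5 genes exceeded their means in MycVD tumours, where a few tumours described below stood far above the others. Oat, at 50.7 ± 8.09 eRPKM, stood at 49.4% of the control level (log2 change -1.01 ± 0.12, adjusted p = 1.1e-08). Znrf3 averaged 17.96 ± 2.43 eRPKM in MycVD tumours and 8.47 ± 0.97 eRPKM in control livers (log2 change 1.04 ± 0.08, adjusted p = 4.1e-13).

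Directly compared, MycVD and Myc tumours differed in 1 member, where 15.8% of all tested genes were called (6.14% higher and 9.69% lower). Znrf3 had 14.8, 17.9 and 22.5 eRPKM as its lowest, median and highest MycVD library and 16.3, 20.2 and 25.2 eRPKM in Myc tumours, so the groups overlapped. The log2 difference was -0.26 ± 0.09 (adjusted p = 0.048), and the call was kept in 11 of 31 alternative settings, over which the adjusted p ran from 0.024 to 0.31. The other 9 members were not called. Lect2 averaged 5.78 ± 6.39 eRPKM in MycVD tumours and 2.61 ± 1.93 eRPKM in Myc tumours (log2 difference 0.80 ± 0.42, adjusted p = 0.20). Rnf43 averaged 0.649 ± 0.828 eRPKM in MycVD and 1.03 ± 0.44 eRPKM in Myc tumours (log2 difference -0.55 ± 0.26, adjusted p = 0.15), and without the MycVD tumour of animal ID134660 the difference was -0.74 ± 0.21 with an adjusted p of 0.013. Oat had the same mean within its error, 50.7 ± 8.09 eRPKM in MycVD and 50.5 ± 7.09 eRPKM in Myc tumours.

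After 16 h of doxycycline-containing food, 4 members differed from Myc tumours and 6 did not pass the test, beside 50.7% of all tested genes called (22.8% higher and 28.0% lower). Znrf3 changed most clearly. Its libraries had 8.25, 9.82 and 13.8 eRPKM (lowest, median, highest) in Myc-off tumours and 16.3, 20.2 and 25.2 eRPKM in Myc tumours. No Myc-off library reached the lowest Myc library. The mean was 9.96 ± 1.89 eRPKM in Myc-off (n = 3) and 21.6 ± 2.71 eRPKM in Myc tumours (n = 7), a log2 difference of -1.08 ± 0.13 (adjusted p = 2.4e-08) that was called in all 24 alternative settings. Against control livers the remaining log2 difference of Znrf3 in Myc-off tumours was 0.21 ± 0.12 (adjusted p = 0.13), and its ID means overlapped. In 3 of 28 alternative settings that difference was called, with values up to 0.33, and with quantile normalisation it was -0.08.

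Rnf43 and Lect2 were higher in Myc-off than in Myc tumours, with overlapping ID means. Rnf43 averaged 0.916, 4.18 and 2.80 eRPKM in the Myc-off animals ID150584, ID151964 and ID153344, and the 7 Myc animals lay between 0.297 and 1.47 eRPKM. Animals ID151964 and ID153344 lay above the Myc range and ID150584 inside it. The log2 difference was 0.93 ± 0.37 (adjusted p = 0.033), and the call was kept in 15 of 24 alternative settings. It was lost on leaving out animal ID151964 (0.56, adjusted p = 0.29) or ID153344 (0.81, adjusted p = 0.13), or the Myc animals ID126947 (0.88, adjusted p = 0.053) or ID130395 (0.79, adjusted p = 0.071). Pseudocount 0.1 (adjusted p = 0.052) and animal ID as a random block (adjusted p = 0.068) also lost it. So did a fit of the compared groups alone (adjusted p = 0.051). Lect2 averaged 6.88, 3.96 and 14.1 eRPKM in the same 3 animals, in that order, and 0.372 to 4.79 eRPKM in the Myc animals (log2 difference 1.62 ± 0.59, adjusted p = 0.022). That call was lost without animal ID153344 (1.17, adjusted p = 0.17) or without the Myc animal ID130395 (1.37, adjusted p = 0.05). Both genes remained far under control livers, Rnf43 at 15.5% and Lect2 at 9.07% of the control mean. The animal with the highest Rnf43, ID151964, had the lowest Lect2 of the 3.

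Oat went the other way. It averaged 50.6, 17.4 and 32.4 eRPKM in Myc-off animals ID150584, ID151964 and ID153344, against 43.5 to 63.7 eRPKM over the Myc animals. Animal ID150584 was inside the Myc range and the other 2 were below it. The log2 difference was -0.70 ± 0.20 (adjusted p = 0.0033), and without animal ID151964 it was -0.30 with an adjusted p of 0.19. Rhbg averaged 0.952 ± 0.312 eRPKM in Myc-off and 0.391 ± 0.288 eRPKM in Myc tumours (log2 difference 0.75 ± 0.39, adjusted p = 0.11), and was called in 3 of 24 alternative settings. Axin2 (0.38 ± 0.28, adjusted p = 0.27) and Notum (0.61 ± 0.38, adjusted p = 0.19) were not called, and neither were Lgr5, Tbx3 and Nkd1, whose log2 differences were 0.07 ± 0.25, 0.04 ± 0.40 and 0.00 ± 0.22. Against the same control livers, 9 members were lower in Myc-off tumours and none higher, beside 58.3% of all tested genes called (37.3% higher and 20.9% lower). Here too the filter favoured the direction of Axin2, Lgr5, Tbx3, Rhbg and Nkd1, which passed it only through control livers. Notum in Myc-off tumours, at 0.833 ± 0.506 eRPKM, was 2.27% of the control mean, and Axin2, at 0.413 ± 0.204 eRPKM, was 8.33%.

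**Figure D3:**
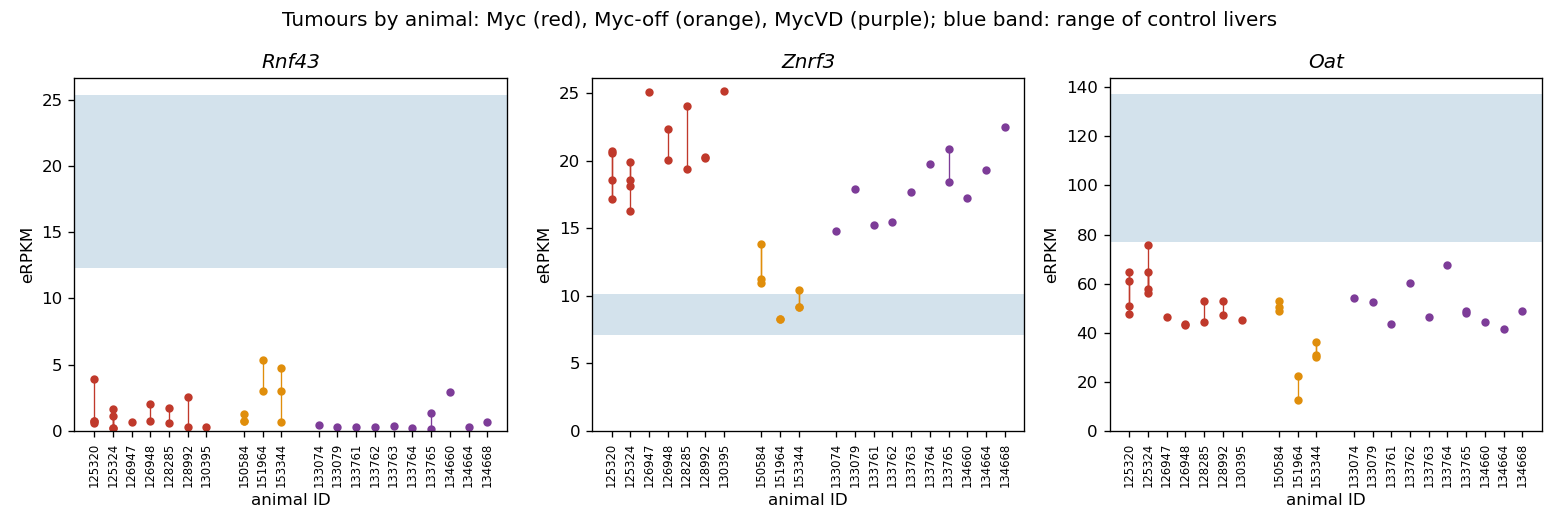
Rnf43, Znrf3 and Oat in eRPKM (y axis) for each tumour library, placed by animal ID (x axis) and joined within an animal, for Myc (red), Myc-off (orange) and MycVD (purple); the blue band spans the control livers. Myc-off animals lie inside or close to the control band for Znrf3, and animal ID151964 stands lowest for Oat at 17.4 eRPKM and highest for Rnf43 at 4.18 eRPKM among the Myc-off animals.

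Listed from the highest mean to the lowest, the groups stood in the order control, Myc-off, MycVD and Myc for Axin2, Lect2, Notum and Rhbg, and control, Myc-off, Myc and MycVD for Lgr5, Nkd1, Rnf43 and Tbx3. In each of these 8 genes the control livers stood apart from the next group, and neighbouring tumour groups overlapped in their ID means. Between Myc-off tumours and control livers the ID means of 40.0% of all tested genes did not overlap, 26.4% with the tumours higher and 13.7% with the tumours lower. For Oat the order was control, MycVD, Myc and Myc-off, with the same separation. For Znrf3 it was Myc, MycVD, Myc-off and control, with MycVD apart from Myc-off and the other neighbours overlapping.

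The 8 members other than Znrf3 and Oat were often high in the same tumour libraries. This set was chosen after the values were seen, so the pattern is a description without a test. The MycVD tumour of animal ID134660 was the highest of its group for all 8 genes, at 6.46% (Notum) to 33.4% (Nkd1) of the control means, with a median of 21.4%. The second MycVD tumour was ID133765-B, with a median of 9.08%, while tumour ID133765-A of the same animal had a median of 0.745%. Tumour ID133765-A held no read of Lgr5 or Notum. In Myc tumours, ID125324-D (median 13.5% of control) and ID126948-C (11.7%) stood highest, and in Myc-off tumours ID153344-B (21.2%) and ID153344-A (14.2%), beside 3.11% for tumour ID153344-C of that animal. Both named MycVD tumours were also high in genes outside the set, of which Cyp2e1 was chosen after its values were seen. Tumour ID134660-A had 36.0% of the control mean of the pericentral cytochrome gene Cyp2e1, 25.4% of that of the periportal cytochrome gene Cyp2f2, 24.7% of that of the endothelial ligand gene Wnt2 and 37.6% of that of the R-spondin gene Rspo3. Tumour ID133765-B had 22.9% of Cyp2e1, 24.9% of Cyp2f2, 21.4% of Wnt2 and 20.4% of Rspo3. Myc tumours ID125324-D and ID126948-C were the highest Myc libraries for Cyp2e1 (30.9% and 18.3%) and Cyp2f2 (13.4% and 7.38%). In Myc-off animals ID151964 and ID153344 Cyp2f2 did not follow the members. It stood at 33.0% of the control mean in ID153344-B, 26.3% in ID153344-A and 29.2% in ID153344-C, and at 40.6% in ID151964-B, where the members' median was 3.82%. In Myc-off tumours ID150584-A, B and C, Cyp2f2 stood at 2.51%, 3.70% and 4.37%, beside members' medians of 3.39%, 6.51% and 7.61%. Control livers held 987 to 1742 reads of Cyp2e1 per kilobase, a range that spans the 1324 to 1546 of Eef1a1. Whether a limit on reads per kilobase raises the percentages of Cyp2e1 was not tested. Whether normal liver in the dissected piece contributes to these values was not tested.

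**Figure D4:**
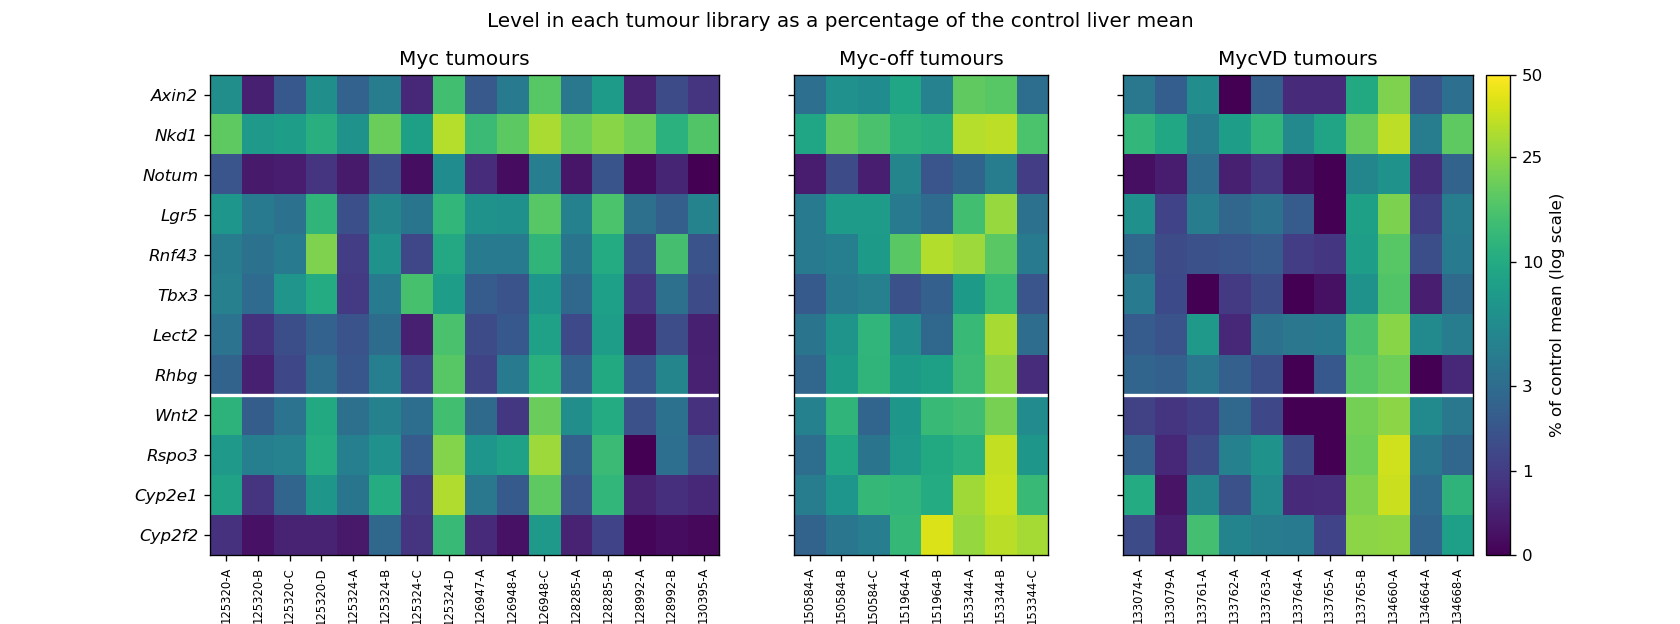
Level of 8 members (above the white line) and of Wnt2, Rspo3, Cyp2e1 and Cyp2f2 (below it) in each tumour library, as a percentage of the control liver mean on a log colour scale; columns are libraries named by animal ID and tumour letter. The columns ID134660-A and ID133765-B are bright among the members and the other 4 genes, whereas ID153344-C and ID151964-B are bright for Cyp2f2 (29.2% and 40.6%) and low for most members (medians 3.11% and 3.82%).

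Single genes departed from this shared pattern. Rnf43 reached 3.88 eRPKM, 22.8% of control, in Myc tumour ID125320-D, and 15.05% in ID128992-B, where the members' medians were 8.13% and 2.80%. In Myc-off tumour ID151964-B Rnf43 had 5.34 eRPKM, 31.4% of control, while the members' median was 3.82%. Tbx3 reached 2.0 eRPKM in Myc tumour ID125324-C, in which the members' median was 1.27%. In Myc tumours the SD between tumours of an animal was above that between animal means for 8 of the 10 members, and in Myc-off tumours for 5 of the 10. An animal mean averages up to 4 tumours, which shrinks the SD between means. In Myc tumours the SD of log2 values of Lect2 was 1.28 between tumours of an animal and 0.85 between animal means, and that of Rnf43 was 0.94 and 0.40. For Znrf3 the 2 SDs were 0.13 and 0.18, and for Oat 0.18 and 0.19. In the Myc-off group Oat varied between animals, with an SD of 0.79 between animal means and 0.27 between tumours of an animal, and for Rnf43 these were 0.86 and 0.77.

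Genes that supply the Wnt signal were called in both directions, with limits from the filter given below. Of 19 Wnt ligand genes, 7 were tested, and 5 were lower and 2 higher in Myc tumours than in control livers (median log2 change -1.12, beside 0.28 over all tested genes). Wnt2, Wnt5a and Wnt9b passed the filter on low values only through control livers and Wnt16 only through tumours. The filter itself thus favoured the direction of 4 of these 7 genes, and the count and the median support nothing. With quantile normalisation 5 were lower and 1 higher. Wnt2, a ligand made by liver endothelium, averaged 0.302 ± 0.192 eRPKM in Myc tumours and 5.62 ± 3.08 eRPKM in control livers (log2 change -2.78 ± 0.29, adjusted p = 3.4e-10). Wnt5a fell by 2.63 on the log2 scale. Rspo3, the central-vein R-spondin and the 1 of 4 R-spondin genes tested, averaged 0.537 ± 0.403 eRPKM in Myc tumours and 7.26 ± 1.04 eRPKM in control livers (log2 change -2.98 ± 0.25, adjusted p = 3.3e-12). The summed endothelial markers were lower in the same tumours, as given above, and 7 of those 10 markers were lower and 1 higher. Over all tested genes, 29.7% were lower and 50.4% higher in Myc tumours. In Myc-off against Myc tumours neither Wnt2 nor Rspo3 was called. Wnt4 was higher (log2 difference 1.57 ± 0.50, adjusted p = 0.0099) and Wnt2b lower (-0.90 ± 0.23, adjusted p = 0.0019).

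Of 12 receptor genes tested, 4 were higher and 6 lower in Myc tumours, and 8 were lower with median-ratio scaling. Over all tested genes, 50.4% were higher and 29.7% lower in Myc tumours than in control livers. Ror1 passed the filter only through control livers and Fzd9 only through tumours, so the filter itself favoured a difference of these 2 genes from control livers. Fzd9 stayed under 1 eRPKM in Myc-off tumours and so passed only through tumours with Myc expression on. The filter thus also favoured a lower Fzd9 in Myc-off than in Myc tumours, and that test supports nothing. Among the Frizzled receptor genes, Fzd8 averaged 1.06 ± 0.28 eRPKM in Myc tumours and 22.9 ± 4.79 eRPKM in control livers (log2 change -3.90 ± 0.17, adjusted p = 1.4e-19), and Fzd9 averaged 5.25 ± 2.16 eRPKM in Myc tumours and 0.0552 ± 0.0542 eRPKM in control livers (log2 change 3.29 ± 0.22, adjusted p = 9.6e-15). Fzd9 was lower in Myc-off tumours, at 0.0755 ± 0.0213 eRPKM, than in Myc tumours (log2 difference -3.23 ± 0.31, adjusted p = 5.1e-10), and in MycVD tumours it was at 0.906 ± 0.544 eRPKM (log2 difference from Myc -2.05 ± 0.22, adjusted p = 1.8e-07). Of 4 secreted inhibitor genes tested, 3 were higher in Myc tumours and none lower, and Sfrp1, whose product binds Wnt ligands, averaged 8.91 ± 1.96 eRPKM in Myc tumours and 0.533 ± 0.185 eRPKM in control livers (log2 change 3.18 ± 0.36, adjusted p = 2e-09). With quantile normalisation this list gave 2 higher and 1 lower, and Sfrp1 and Dkk2 passed the filter only through tumours. Sfrp1 was lower in Myc-off than in Myc tumours (log2 difference -1.74 ± 0.51, adjusted p = 0.0055) and in MycVD than in Myc tumours (-1.91 ± 0.37, adjusted p = 0.0006).

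Of 13 genes of Dishevelled and the destruction complex, 9 were higher and 3 lower in Myc tumours, with a median log2 change of 0.47 beside 0.28 over all tested genes, 80.0% of which were called (50.4% higher). With median-ratio scaling 8 were higher and 3 lower, with a median of 0.22. Dvl2 led this list (log2 change 1.17 ± 0.13, adjusted p = 1.1e-09). Ctnnb1, which encodes beta-catenin, averaged 122.8 ± 2.05 eRPKM in Myc-off tumours and 91.5 ± 8.48 eRPKM in Myc tumours (log2 difference 0.43 ± 0.07, adjusted p = 1.3e-05). With quantile normalisation that difference was 0.15 (adjusted p = 0.015). Ctnnb1 had 466 to 966 reads per kilobase in Myc-off and 764 to 1017 in Myc tumours, where Eef1a1 had 1324 to 1602 and 1392 to 1646. Whether a limit on reads per kilobase touches the ratio of Ctnnb1 was not tested. Of 7 genes for nuclear partners of beta-catenin, 4 were higher and 2 lower in Myc tumours than in control livers, shares near those of all tested genes (50.4% higher and 29.7% lower). Bcl9, a co-activator gene, led the rises (1.75 ± 0.21, adjusted p = 9.5e-09), and Tcf7 fell by 1.01 on the log2 scale. Of 4 other Wnt target genes tested, 3 were higher and 1 lower, and of these Nkd2 passed the filter only through tumours. Ccnd1, the cyclin D1 gene, averaged 7.61 ± 0.71 eRPKM in Myc tumours and 48.4 ± 11.1 eRPKM in control livers (log2 change -2.56 ± 0.20, adjusted p = 5.8e-13), whereas Cd44, a cell adhesion receptor gene, was higher (2.09 ± 0.14, adjusted p = 6.7e-15).

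Pericentral and periportal hepatocyte genes were both lower. Of 12 other pericentral genes, 11 were lower and 1 higher in Myc tumours than in control livers, with a median log2 change of -2.26, and of 16 periportal genes 14 were lower and 2 higher, with a median of -1.58. Over all tested genes, 29.7% were lower and 50.4% higher, with a median of 0.28. The 2 higher periportal calls became 0 with median-ratio scaling and 1 with quantile normalisation. Slc1a2, a pericentral glutamate transporter gene, averaged 0.243 ± 0.097 eRPKM in Myc tumours and 28.7 ± 5.36 eRPKM in control livers (log2 change -5.29 ± 0.16, adjusted p = 4.7e-23), and it passed the filter only through control livers. Glul, the glutamine synthetase gene, was chosen for mention after its values were seen. It averaged 61.7 ± 4.72 eRPKM in Myc tumours and 128 ± 10.4 eRPKM in control livers (log2 change -1.05 ± 0.05, adjusted p = 5e-18). Glul had 480 to 707 reads per kilobase in Myc tumours and 706 to 1032 in control livers, where Eef1a1 had 1392 to 1646 and 1324 to 1546. Whether a limit on reads per kilobase touches the ratio of Glul was not tested. In Myc-off against Myc tumours, 6 pericentral genes were higher and 2 lower of 12, and 9 periportal genes were higher and none lower of 16, with medians of 0.77 and 0.66 beside 0.00 over all genes and 0.22 over the members. Over all tested genes, 22.8% were higher and 28.0% lower in Myc-off against Myc tumours. The 5 hepatocyte markers and the 6 cholangiocyte markers tested were all higher in Myc-off than in Myc tumours, with medians of 0.76 and 3.11. With quantile normalisation these medians were 0.30 and 3.23. The hepatocyte markers are abundant genes, and whether a limit on reads per kilobase touches their sums or differences was not tested. The cholangiocyte markers Krt7, Epcam and Cldn4 passed the filter only through tumours. The cholangiocyte markers summed to 26.5 to 234 eRPKM in Myc-off and 5.46 to 45.2 eRPKM in Myc tumours, and their part in the members' values was not tested.

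Genes with the pattern most like each member were found by the root-mean-square difference of centred log2 values over the 31 IDs. Notum was nearest to Slc1a2 (0.42) and Prr16 (0.43), and Lect2 to Pigr and Pon1 (0.58 each). Znrf3 was nearest to Cwc22 and Cherp (0.16 each), and Oat to Iyd (0.22) and Mgll (0.27). Axin2 was nearest to Tnfaip8l1 (0.28) and Ntn1 (0.32), and Lgr5 to Ptprb (0.27) and Tmem132e (0.29). Tbx3 was nearest to Cyp2j9 (0.49) and Npr2 (0.52), Rnf43 to Bmp2 (0.41) and Chn2 (0.45), Rhbg to Rxrg (0.38) and Bmp10 (0.41), and Nkd1 to Lrrk1 (0.22) and Eng (0.24). No member was among the 2 nearest genes of another. The difference between tumours and control livers dominates this measure, and the IDs share it.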

How the data were processed

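Ribosomal-RNA-depleted RNA of mouse liver and liver tumours was sequenced in 46 libraries. The authors deposited 1 table of eRPKM, an RPKM value per gene and library; per the submitters' processing notes reads were aligned with TopHat2 2.0.8 to mm9, while no source used here names the counting step. The RPKM values carry no counts, but a step that gave whole reads was found for 19418 genes, and depth was taken from these genes alone. Values were averaged per animal ID (31 IDs) before log2(eRPKM + 0.5). All 4 groups were fitted together with limma 3.58.1 (R 4.3.3) with a mean-variance trend, and p-values were adjusted over 14566 genes (7105 below 1 eRPKM in 3 IDs were removed). The fit was also tried on simulated data, whose outcome is not given here and supports no result above. Of the lists, at most the 3 called genes with the largest change per comparison are named, others being marked as chosen after their values were seen, and for each member the 2 most alike genes. Members and lists were chosen with earlier results of these data known. No 2 libraries were identical; the closest pair within a group still differed by a chi-square of 3.14 for each degree of freedom. Where nothing in the labels says that IDs are separate animals, p-values measure only the spread between IDs. Alternatives were another pseudocount, filter, scaling, sample unit and fit, leaving out each ID, and 4 chosen after the data were seen: a depth term, leaving out libraries with low Gapdh, leaving out the shallowest library, and limma voom on recovered reads.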

Additional observations from a re-analysis of the deposited data

Results flagged for a closer look

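The MycVD tumour of animal ID134660 lay apart from the other 9 MycVD animals for 8 of the 10 genes, by the gap to its nearest neighbour relative to the range of the group (Dixon's criterion). Its level was 1.13 eRPKM of Axin2, the next highest animal having 0.293. Lgr5 was at 0.652 eRPKM (next 0.179), Tbx3 at 2.18 eRPKM (next 0.530) and Rnf43 at 2.94 eRPKM (next 0.742). Lect2 was at 22.5 eRPKM (next 8.95), Rhbg at 2.05 eRPKM (next 0.969), Notum at 2.37 eRPKM (next 1.13) and Nkd1 at 0.892 eRPKM (next 0.488). Znrf3 and Oat of this tumour lay inside the group. The criterion was applied to 20 groups of values, and chance marks about 5% of groups; the 8 values come from 1 library and are not independent.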

How the results depend on the processing

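The 10 genes kept direction and call in Myc against control and MycVD against control, and the 9 lower genes did so in Myc-off against control, under every alternative run. Axin2, Lgr5, Tbx3, Rhbg and Nkd1 passed the filter only through control livers, so their kept direction supports nothing. Scaling moved the background: with median-ratio scaling the median log2 change of all genes in Myc against control was 0.05 in place of 0.28, and the share of higher calls 52.2% in place of 62.9% (51.9% with quantile normalisation); Myc-off against control had 49.4% and 48.5% in place of 64.1%, MycVD against control 51.3% in place of 61.3%, and MycVD against Myc 49.8% and 51.4% in place of 38.8%. For MycVD against Myc, 2306 genes were called, but 959 with a depth term (61.3% higher) and 3975 without the libraries of low Gapdh. The 1 member called there became 0 with pseudocount 0.1, no filter, median-ratio scaling, quantile normalisation, every tumour as a sample, with or without animal ID as a random block, the compared groups alone, a depth term, or the shallowest library left out. Leaving out 1 ID gave 0 to 1 members and 1508 (without Myc animal ID130395) to 2646 genes in MycVD against Myc, and 2 to 4 members in Myc-off against Myc, the lowest without ID130395, ID151964 or ID153344. Direction turned only in small differences. In Myc-off against Myc these were Nkd1 at -0.01 (pseudocount 0.1), -0.10 (quantile), -0.07 (low Gapdh) and -0.00 (shallowest library), Tbx3 at -0.12 (quantile), -0.05 (every tumour), -0.01 (random block) and -0.05 (voom), and Lgr5 at -0.05 (quantile). In MycVD against Myc they were Axin2 at -0.05 (pseudocount 0.1), -0.01 (every tumour) and -0.08 (voom), Oat at -0.08 (quantile, every tumour and depth term) and -0.03 (random block and voom), Rhbg at 0.08 (quantile), 0.30 (depth term) and 0.00 (low Gapdh), and Lgr5 at 0.02 (quantile) and 0.06 (depth term). Znrf3 in Myc-off against control was -0.08 with quantile normalisation. Leaving out 1 ID gave, in Myc-off against Myc, Nkd1 -0.18 to 0.13, Tbx3 -0.22 to 0.25 and Lgr5 -0.11 to 0.20, and in MycVD against Myc, Axin2 -0.13 to 0.10, Oat -0.05 to 0.06 and Rhbg -0.25 to 0.03. The cause was not tested. No paired analysis was possible because the replicate numbers are accession order and pair no samples. Depth limits the members with the fewest reads, where a few reads decide the level. In Myc tumours the median over libraries was 4 reads for Notum, 4.5 for Rhbg and 6.5 for Axin2. It was 13 for Lgr5, 19.5 for Nkd1, 26 for Tbx3 and 47.5 for Rnf43.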
